A study of Saccharomyces cerevisiae with 24 samples.

Results

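The 10 genes described here encode proteins of the cortical actin patch, the short-lived actin structure that drives endocytosis in budding yeast. They were chosen by name: the scaffold gene ABP1, the kinase genes ARK1 and PRK1, the scission genes RVS161 and RVS167, the SH3-domain genes BZZ1, BBC1 and YSC84, the WASP-partner gene LSB5 and the phosphatidate phosphatase gene APP1. All 10 were found among the 5843 entries of the haploid table and among the 5730 of the diploid table. All 10 also passed the filter on low values, with 538 to 5406 reads per gene in the 13 libraries whose whole reads could be recovered from the values. The series holds poly(A) RNA-seq of 8 budding yeast strains, described by the submitters as differing in the actin they make and grown in rich medium with 2% dextrose at 25 °C. There were 3 libraries per strain, 24 in all. Of the haploid strains, 6 in all, ScNI is the wild type and the others are N2, Ca, Sc[Ca], Sc[At] and Sc[Sp]. The 2 diploids are N2/Ca and its wild type Sc/Sc. The labels give strain names and ploidy and no further genotype, so these names are used as labels only. They also do not say whether the 3 libraries of a strain came from separate clones or cultures. The main tests set a difference against the spread between libraries within strains, pooled over the strains in the fit. Whether any p-value here takes in the spread between clones or cultures is therefore not known.

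Actin patches form where a clathrin coat has gathered cargo. The yeast WASP Las17 and type I myosins then switch on the Arp2/3 complex, and branched actin pushes the membrane inward. Abp1 binds the new filaments and brings the kinases Ark1 and Prk1 to the patch, where they phosphorylate coat proteins and promote coat disassembly. The BAR-domain proteins Rvs161 and Rvs167 form a heterodimer on the neck of the invagination and act in scission. Bzz1, an F-BAR protein, binds Las17 and favours actin assembly, whereas Bbc1 restrains Las17 and binds type I myosins. Ysc84 binds Las17 and actin filaments, Lsb5 binds Las17 and the coat protein Sla1, and App1 is a phosphatidate phosphatase that associates with patch proteins.

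Depth could be read for 11 haploid libraries, at 11909175 to 15403081 reads, and for 2 diploid libraries, at 12128284 and 12134919, and is unknown for the other 11. ACT1, the yeast actin gene, checks the labels: its mean was 18498 normalised counts in ScNI and between 20.9 and 146 in Sc[Ca], Sc[Sp] and Sc[At]. It was 13450.0 ± 2614 in N2 and 12798 ± 3629 in Ca (SD, n = 3). Several libraries stood apart. The median gene of chromosome XIII lay at log2 0.87 and 0.89 over the ScNI mean in Ca replicates 1 and 2 but at −0.01 in Ca replicate 3. It lay at 0.51 in N2 replicate 1 against 0.93 and 0.92 in N2 replicates 2 and 3, and chromosome VI behaved alike, at 0.88, 0.86 and 0.05 in Ca and at 0.50, 0.92 and 0.89 in N2. Chromosome XI was at 0.54 in Ca replicate 1. None of the 10 genes lies on VI, XI or XIII. The medians of the chromosomes that hold them lay between −0.13 and 0.18 in every haploid library and between −0.06 and 0.12 in the diploid ones. The 0.18 was that of chromosome III, which holds ABP1, RVS161 and LSB5, in Ca replicate 3. In Ca replicates 1 and 2 it was −0.004 and −0.06. In replicate 2 of each haploid strain, the pheromone gene MF(ALPHA)1 ran from 10366 to 25872 normalised counts, while the remaining 12 haploid libraries had 0 to 11.6, so those 6 show the MATalpha pattern. Every haploid strain has 1 such library.

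In build R64 the genes lie on chromosomes III, IV, VIII, IX, X and XIV. RVS161 (YCR009C) is at III:130745-131542 on the minus strand, RVS167 (YDR388W) at IV:1250186-1251634 on the plus strand, ARK1 (YNL020C) at XIV:595623-597539 on the minus strand and PRK1 (YIL095W) at IX:183937-186369 on the plus strand. ABP1 (YCR088W) is at III:265068-266846, BZZ1 (YHR114W) at VIII:338083-339984, LSB5 (YCL034W) at III:61658-62722 and APP1 (YNL094W) at XIV:447611-449374, all on the plus strand. BBC1 (YJL020C) is at X:398937-402410 and YSC84 (YHR016C) at VIII:136881-138455, both on the minus strand. YSC84 has 2 coding exons and the others 1. None of the 10 overlaps another annotated gene.

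Promoter sequence is shown for the 6 genes that differed among the haploid strains, ARK1, RVS161, BZZ1, BBC1, YSC84 and LSB5. No motif searched was found in all of them, and a link between motifs and levels was not tested. Each window, read from the R64 genome, runs from base 250 to base 51 before the start codon, 5′ to 3′ on the strand of the gene. Capitals mark every match, on either strand, to 7 short motifs searched.
ARK1: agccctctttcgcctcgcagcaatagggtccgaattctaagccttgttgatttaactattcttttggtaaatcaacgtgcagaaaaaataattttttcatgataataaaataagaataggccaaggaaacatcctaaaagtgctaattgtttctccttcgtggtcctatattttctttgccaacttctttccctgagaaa
RVS161: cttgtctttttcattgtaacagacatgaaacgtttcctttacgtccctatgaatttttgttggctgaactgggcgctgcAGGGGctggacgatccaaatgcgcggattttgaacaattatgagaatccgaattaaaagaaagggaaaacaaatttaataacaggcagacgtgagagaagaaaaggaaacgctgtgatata
YSC84: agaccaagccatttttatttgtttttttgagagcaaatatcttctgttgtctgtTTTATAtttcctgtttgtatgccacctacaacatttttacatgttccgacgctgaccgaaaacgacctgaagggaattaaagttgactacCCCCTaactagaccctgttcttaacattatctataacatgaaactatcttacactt
LSB5: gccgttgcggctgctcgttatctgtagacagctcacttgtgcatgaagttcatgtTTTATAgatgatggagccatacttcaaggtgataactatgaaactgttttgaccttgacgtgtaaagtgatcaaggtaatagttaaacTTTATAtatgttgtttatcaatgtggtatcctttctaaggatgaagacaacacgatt
BBC1: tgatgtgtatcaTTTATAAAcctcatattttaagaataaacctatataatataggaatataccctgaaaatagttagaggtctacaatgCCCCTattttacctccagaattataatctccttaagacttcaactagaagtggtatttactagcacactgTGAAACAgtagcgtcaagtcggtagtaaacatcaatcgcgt
BZZ1: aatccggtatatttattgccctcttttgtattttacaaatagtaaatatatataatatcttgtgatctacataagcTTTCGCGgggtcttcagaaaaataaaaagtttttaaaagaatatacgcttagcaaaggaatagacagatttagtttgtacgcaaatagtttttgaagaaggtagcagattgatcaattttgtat
These windows are XIV:597590-597789 (minus strand) for ARK1, III:131593-131792 (minus) for RVS161, VIII:138506-138705 (minus) for YSC84, III:61408-61607 (plus) for LSB5, X:402461-402660 (minus) for BBC1 and VIII:337833-338032 (plus) for BZZ1. The YSC84 window takes in the first bases of the divergent gene YSC83, whose start lies 238 bases from that of YSC84. The motifs were the Msn2/Msn4 stress response element CCCCT, the Rlm1 motif, the MBF motif ACGCGT, the SBF motif CGCGAAA, the Ste12 motif TGAAACA, the Reb1 motif TTACCCG and the TATA box TATAAA. The stress response element occurred in 3 of the 10 windows (RVS161, BBC1 and YSC84) and in 15.6% of all 6001 windows of the same length. The TATA box occurred in 5 of the 10 and in 37.9% of all, and in BBC1 its matches on both strands overlap. CGCGAAA was found in the window of BZZ1 (3.2% of all windows) and TGAAACA in that of BBC1 (5.0%). The Rlm1, MBF and Reb1 letters were in none of the 10 windows, against 3.3%, 2.7% and 7.0% of all. The ARK1 window holds no match to any of the 7. A match is a string of letters and not a shown binding site.

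Per kilobase of coding sequence, the mean levels of the genes in ScNI spanned a wide range. RVS161 was the highest, at 4535 normalised counts per kilobase, above 91.5% of 5749 coding genes. RVS167 followed at 2857 and ABP1 at 1915 per kilobase, LSB5 at 1561 and YSC84 at 1120.1. The median coding gene stood at 658 per kilobase, so these 5 were well above it. APP1 (939), BBC1 (839) and BZZ1 (715) were nearer to it. Both kinase genes were below it, ARK1 at 598 and PRK1 at 339, which was above only 26.3% of coding genes. Across the 18 haploid libraries YSC84 varied most, by 2.74-fold between its lowest and highest library, and BZZ1 least, by 1.33-fold.

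**Figure D1:**
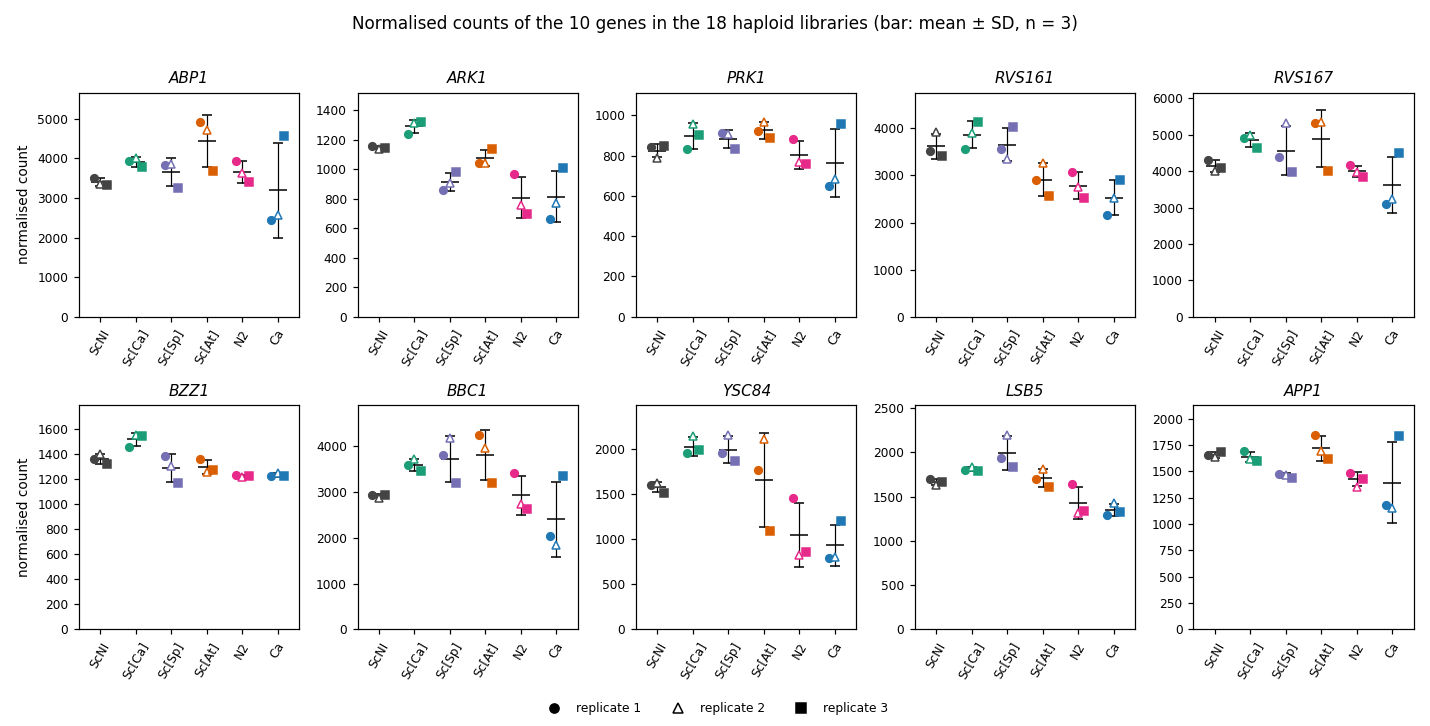
Normalised counts (y axis, linear, from 0) of each gene in the 18 haploid libraries, by strain (x axis). Points are libraries, with the shape giving the replicate, and bars are mean ± SD (n = 3); YSC84 and RVS161 sit lower in N2 and Ca than in ScNI, and Ca replicate 3 stands above the other Ca libraries for ABP1, PRK1, RVS167, BBC1 and APP1.

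Differences between strains were tested with limma on log2(value + 1), with adjusted p under 0.05 taken as a call, and a fold on that scale slightly understates a change. Among the 6 haploid strains, 6 of the 10 genes differed by the F test (ARK1, RVS161, BZZ1, BBC1, YSC84 and LSB5), beside 60.6% of all 5808 genes tested. The smallest adjusted p of the 10 was that of LSB5 (0.00105) and the largest was that of PRK1 (0.21). In Ca, 4 genes fell against ScNI (ARK1, RVS161, YSC84 and LSB5) and 0 rose, where 30.2% of all genes were called, 14.2% lower and 16% higher. In N2, 2 fell (ARK1 and RVS161) and 0 rose, where 29.1% of all genes were called, 12.6% lower and 16.5% higher. All 10 fitted folds were negative in Ca, with a median of −0.29 against −0.00 over all genes, and 9 of 10 were negative in N2, with a median of −0.18 against −0.00.

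No gene of the 10 passed in Sc[Ca], Sc[Sp] or Sc[At] against ScNI with limma, where 0.0172%, 21.0% and 15.3% of all genes were called. At an unadjusted p under 0.05 there were 1 (BZZ1), 2 (ARK1 and LSB5) and 1 (RVS161), beside 4.03%, 37% and 30.5% of all genes. edgeR could be run only on the 11 haploid libraries with recovered reads, 3 of ScNI and 2 each of Sc[Ca], Sc[Sp] and N2, with 1 each of Sc[At] and Ca, a choice made after the data were seen. It called 1 of the 10 in Sc[Ca] (YSC84, log2 0.39, edgeR adjusted p = 0.013), beside 7.22% of all genes. In Sc[Sp] it called 5, beside 49.4%: BBC1 (0.34), YSC84 (0.35) and LSB5 (0.28) higher and ARK1 (−0.28) and APP1 (−0.19) lower. In N2 it called 6 lower, beside 58.4% called in either direction: ARK1 (−0.66), RVS161 (−0.46), YSC84 (−0.91), LSB5 (−0.33), APP1 (−0.25) and BZZ1 (−0.15). limma on the same 11 libraries called the same genes. These 11 leave out N2 replicate 1 and Ca replicates 1 and 3. The haploid comparisons with ScNI share its 3 libraries, so they are not independent of each other.

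**Figure D2:**
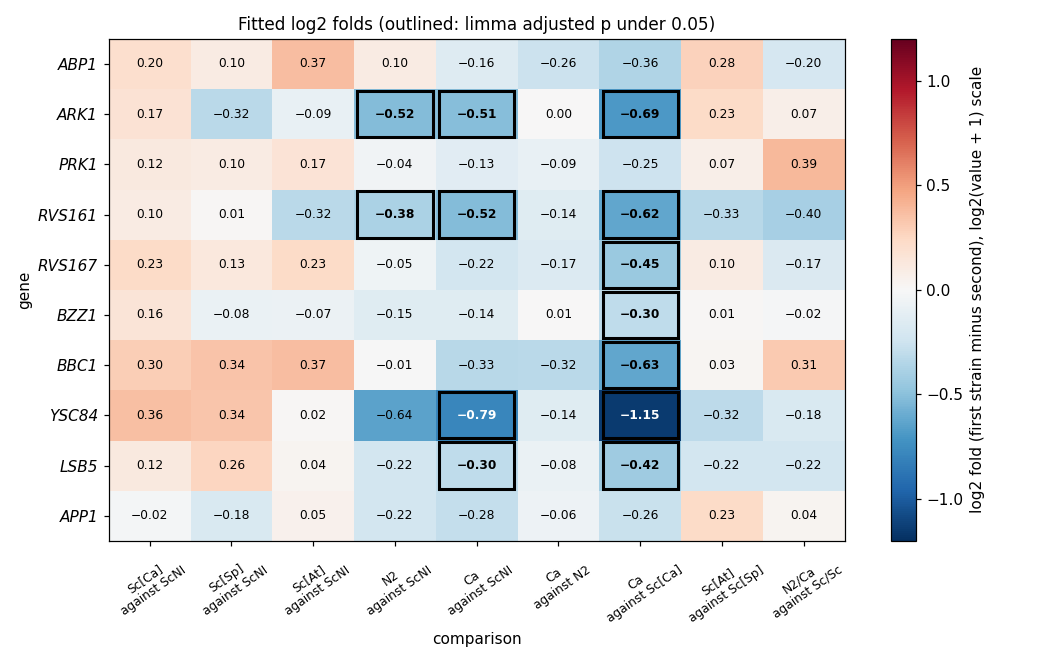
Fitted log2 folds of the 10 genes (rows) in the 9 comparisons (columns), on the log2(value + 1) scale, with red higher and blue lower in the strain named first. Outlined cells passed limma's adjusted p of 0.05: 2 in N2 and 4 in Ca against ScNI and 7 in Ca against Sc[Ca], all lower.

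ARK1 passed the F test, while PRK1 passed neither it nor any haploid comparison in the limma fit of all 18 libraries. That alone does not show that the kinase genes differ from each other, and their ratio is given below. ARK1 was at 1156, 1136 and 1145 normalised counts in ScNI, at 968, 755 and 699.9 in N2 and at 665, 771 and 1006 in Ca. Every N2 and Ca library was below every ScNI library. ARK1 fell by 0.52 on the log2 scale in N2 (SE 0.13, limma adjusted p = 0.0105, 95% interval −0.80 to −0.24) and by 0.51 in Ca (SE 0.13, adjusted p = 0.0105, limma). In Sc[Sp] it was at 859, 910.0 and 980.3, again without overlap with ScNI, but the fold of −0.32 (SE 0.13) had a limma adjusted p of 0.0906. In Sc[Ca] it was at 1242, 1315 and 1322, all above ScNI, and in Sc[At] at 1045, 1043 and 1139, which overlapped ScNI. In the order of strain means, Sc[Ca] and ScNI did not overlap, nor did Sc[At] and Sc[Sp], while ScNI overlapped Sc[At], and Sc[Sp], Ca and N2 overlapped in turn.

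PRK1 was at 842, 786 and 846 in ScNI, at 880.2, 766 and 759 in N2 and at 647, 684 and 958 in Ca. Its N2 and Ca libraries lie on both sides of those of ScNI, and its folds were −0.04 (95% interval −0.30 to 0.21) in N2 and −0.13 (−0.39 to 0.12) in Ca. Its neighbours in the order of strain means all overlapped. Its Sc[At] libraries, at 923, 968 and 885, were nevertheless all above ScNI (fold 0.17, SE 0.12, limma adjusted p = 0.377). The ratio of ARK1 to PRK1 normalised counts, not corrected for length, was 1.37, 1.44 and 1.35 in ScNI and 1.49, 1.37 and 1.47 in Sc[Ca]. It was 1.10, 0.985 and 0.922 in N2, 1.03, 1.13 and 1.05 in Ca, 0.942, 1.01 and 1.18 in Sc[Sp] and 1.13, 1.08 and 1.29 in Sc[At]. All libraries of N2, Ca, Sc[Sp] and Sc[At] were thus below all of ScNI. For each of these strains a two-sided exact permutation test of the log2 ratio gave p = 0.1, the smallest that 3 against 3 libraries allow, and 0.18 after adjustment over 18 such tests. AKL1, the third kinase gene of this family, passed the F test among the haploid strains (limma adjusted p = 0.0277). It had folds of −0.26 (SE 0.16) in N2 and −0.34 (SE 0.16) in Ca, with limma adjusted p of 0.24 and 0.119.

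RVS161 fell in N2 and Ca, and its partner RVS167 did not pass against ScNI in the limma fit of all 18 libraries. RVS161 was at 3518, 3922 and 3417 in ScNI, 3075, 2757 and 2513 in N2 and 2168, 2523 and 2903 in Ca. The highest N2 or Ca library was below the lowest of ScNI. It fell by 0.38 on the log2 scale in N2 (SE 0.12, limma adjusted p = 0.0288) and by 0.52 in Ca (SE 0.12, limma adjusted p = 0.00648). In Sc[At] it was at 2895, 3263 and 2559, also below ScNI in every library, with a fold of −0.32 (SE 0.12, limma adjusted p = 0.0876). In the order of strain means, ScNI and Sc[At] were the neighbours that did not overlap. RVS167 was at 4314, 4019 and 4087 in ScNI, 4162, 3981 and 3853 in N2 and 3103, 3232 and 4494 in Ca, so both strains overlapped the wild type. Its folds were −0.05 (95% interval −0.35 to 0.25) in N2 and −0.22 (−0.52 to 0.08) in Ca. The ratio of RVS161 to RVS167 normalised counts was 0.876 ± 0.0873 in ScNI (SD, n = 3), 0.695 ± 0.0434 in N2, 0.708 ± 0.068 in Ca and 0.598 ± 0.0494 in Sc[At]. These 3 strains did not overlap ScNI, with an exact permutation p of 0.1 each and 0.18 after adjustment over the same 18 tests.

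YSC84 had the largest folds of the 10 in N2 and Ca. It was at 1595, 1618 and 1514 in ScNI, at 1457, 821 and 860.3 in N2 and at 789, 806 and 1198 in Ca. All 6 altered libraries were below the wild type, with 1 library of each strain nearer to it. YSC84 fell by 0.79 on the log2 scale in Ca (SE 0.23, limma adjusted p = 0.021). The fold of −0.64 in N2 (SE 0.23) had a limma adjusted p of 0.0517. In Sc[At] the libraries were far apart, at 1768, 2110.4 and 1089, while Sc[Ca] (1948, 2141 and 1987) and Sc[Sp] (1949, 2157 and 1869) were above every ScNI library. LSB3, the paralogue of YSC84, lies on chromosome VI. It was at 2680.0 ± 47.9 in ScNI, 3373 ± 315 in N2 and 2953 ± 1003 in Ca (SD, n = 3), and passed in neither in the fit of 18 libraries, while the 6-library fit called it higher in N2 (log2 0.33, limma adjusted p = 0.0273). The ratio of YSC84 to LSB3 was 0.607, 0.595 and 0.562 in ScNI and 0.484, 0.229 and 0.245 in N2, without overlap (two-sided exact permutation p = 0.1). In Ca it was 0.220, 0.232 and 0.667, with replicate 3 above all of ScNI (exact permutation p = 0.4). LSB3 is the denominator of this ratio, and the median of chromosome VI was raised in 5 of these 6 libraries. Whether that level has a part in the ratio was not tested. The longest run of bases that the unspliced genes YSC84 and LSB3 share is 23 bases, less than the read length of 50. It is shown because paralogues can exchange reads. No run of 50 bases of any of the 10 genes occurs elsewhere in the genome. Only identical runs in unspliced sequence were sought, so reads with mismatches or across a splice junction are not covered.
YSC84 and LSB3: aaaaaatcagattctcaaaatga
It lies at VIII:136948-136970 in YSC84 and VI:202027-202049 in LSB3, both on the minus strand.

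BBC1 and BZZ1, which act on Las17 in opposite directions, did not pass against ScNI in any strain in the limma fit of all 18 libraries, though fits of fewer libraries called each of them in some strains. BBC1 was at 2938, 2872 and 2934 in ScNI, 3400.2, 2745 and 2622 in N2 and 2034, 1838 and 3344 in Ca. The Ca libraries fell on both sides of ScNI, and the fold was −0.33 (95% interval −0.72 to 0.06). All libraries of Sc[Ca] (3585, 3710.3 and 3450.0), Sc[Sp] (3795, 4179.7 and 3187) and Sc[At] (4246, 3952 and 3190.3) were above all of ScNI, with folds of 0.30, 0.34 and 0.37 (SE 0.18 each) and limma adjusted p of 0.953, 0.182 and 0.183. BZZ1 had the narrowest spread of the 10, at 1359.9, 1399 and 1319 in ScNI, 1232, 1220.2 and 1222 in N2 and 1224, 1250.4 and 1222 in Ca. Its N2 and Ca libraries were all below ScNI, by 0.15 and 0.14 on the log2 scale in size (SE 0.07 each), with limma adjusted p of 0.109 and 0.123. Its Sc[Ca] libraries (1456, 1556 and 1542) were all above ScNI.

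LSB5 was the remaining gene that fell in Ca. It was at 1694, 1629.9 and 1665 in ScNI and 1292, 1428 and 1326 in Ca, with no overlap, and fell by 0.30 on the log2 scale (SE 0.09, limma adjusted p = 0.0204). In N2 it was at 1641, 1313 and 1338, which overlaps ScNI, with a fold of −0.22 (limma adjusted p = 0.0741). It was highest in Sc[Sp], at 1936, 2198 and 1837, above every library of the other strains (fold 0.26, SE 0.09, limma adjusted p = 0.0556). ABP1 was at 3517, 3364 and 3342 in ScNI, 4928, 4716 and 3682 in Sc[At], 3945, 3634 and 3402 in N2 and 2434, 2561 and 4579 in Ca. It overlapped at each step of the order of strain means, and its fold against ScNI ran from −0.16 in Ca to 0.37 in Sc[At] (SE 0.18 each). All ABP1 values of Sc[At] and of Sc[Ca] (3947, 4012 and 3783) were above all of ScNI. The limma adjusted p was 0.183 and 0.953 in the fit of 18 libraries. APP1 was at 1651, 1633 and 1686 in ScNI, 1488, 1356 and 1427 in N2 and 1184, 1157 and 1839 in Ca. Its N2 libraries lay below ScNI (fold −0.22, SE 0.13, limma adjusted p = 0.217), as did those of Sc[Sp] at 1478, 1465 and 1437.

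The libraries of N2 and Ca did not give like values for these genes. Ca replicate 3 was the highest Ca library for 8 of 10, at a median of 1.43 times the mean of the other 2 and at up to 1.83 times for ABP1. N2 replicate 1 was the highest N2 library for 10 of 10, at a median of 1.16 times and at up to 1.73 times for YSC84. These are the libraries with the lowest medians of chromosomes VI and XIII in their strains. Whether the chromosome levels have a part in the values of the 10 genes was not tested. How often these libraries were the highest over all genes is not given here. The counts therefore do not show whether the pattern is particular to the 10. Without Ca replicate 3, 9 of 10 genes passed lower in Ca against ScNI, all but BZZ1, with folds such as −0.98 for YSC84, −0.68 for ARK1, −0.59 for BBC1, −0.45 for ABP1 and −0.31 for PRK1. Without Ca replicate 1, 1 passed (RVS161), and without ScNI replicate 1, 2 did. YSC84 had limma adjusted p of 0.0587 to 0.0821 without Ca replicates 1 or 2 or ScNI replicates 1 or 2. LSB5 had 0.0559 to 0.0707 without Ca replicate 1 or ScNI replicates 1 or 3, and ARK1 had 0.0535 without Ca replicate 1. Without N2 replicate 1, 4 passed lower in N2 (ARK1 at −0.66, RVS161 at −0.46, YSC84 at −0.91 and LSB5 at −0.33), and without N2 replicate 3, 0 did. Without N2 replicate 2, ScNI replicate 1 or ScNI replicate 2, 1 passed (ARK1), and RVS161 had limma adjusted p of 0.0842, 0.06 and 0.116. In the F test among strains, all 10 genes passed without Ca replicate 3. The 6-library fit of Ca and ScNI called 2, RVS161 and YSC84, with limma adjusted p of 0.0787 for ARK1 and 0.0562 for LSB5. The 6-library fit of N2 and ScNI called 3 lower, ARK1, RVS161 and APP1. The share of all genes called is not given here for these 6-library fits or with a library left out. These counts can therefore not be read as particular to the 10 genes.

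**Figure D3:**
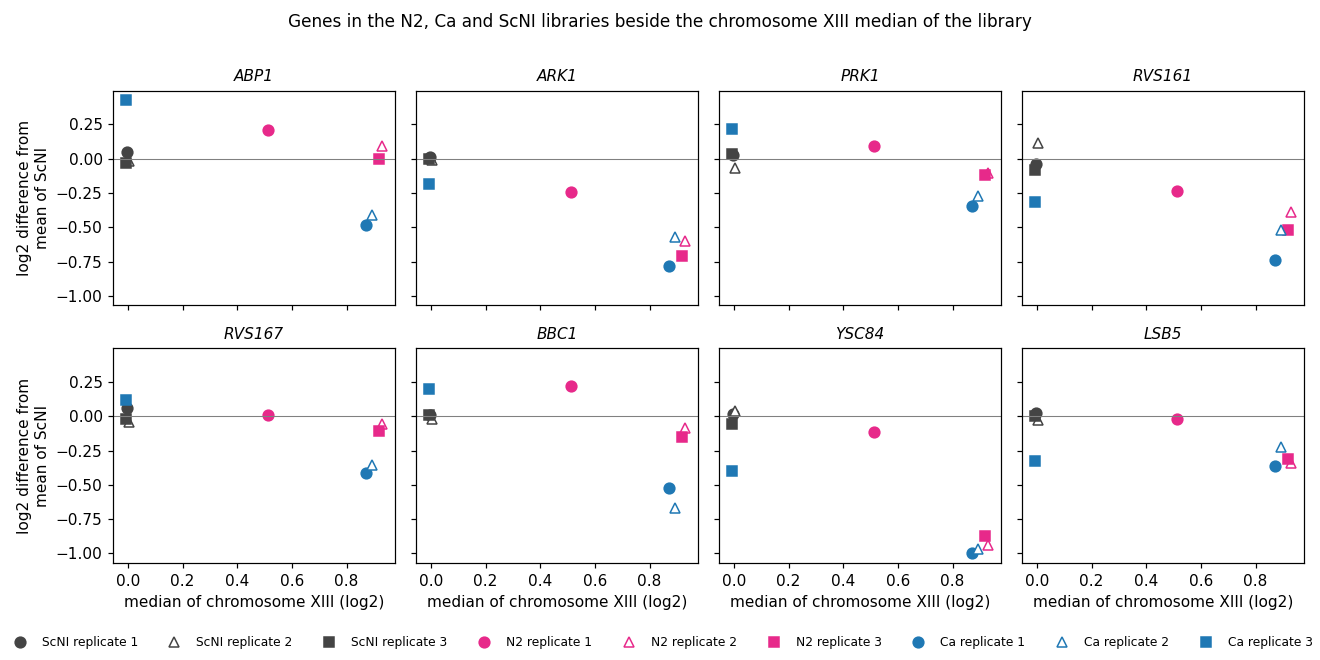
Each of 8 genes in the ScNI, N2 and Ca libraries, as the log2 difference from the ScNI mean (y axis), against the median log2 difference of chromosome XIII genes in the same library (x axis). Ca replicate 3, at −0.01 on the x axis, and N2 replicate 1, at 0.51, lie above the other libraries of their strain in most panels; BZZ1 and APP1 are not drawn.

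Against Sc[Ca], 7 genes fell in Ca and 0 rose, where 39.7% of all genes were called, 19% lower and 20.6% higher. All 10 fitted folds were negative, with a median of −0.43 against −0.00 over all genes. YSC84 had the largest, from 2026 ± 102 in Sc[Ca] to 931 ± 231 in Ca (log2 −1.15, SE 0.23, limma adjusted p = 0.00181). ARK1 went from 1293 ± 44.1 to 814 ± 175 (−0.69, SE 0.13, limma adjusted p = 0.00125) and RVS161 from 3869 ± 295 to 2531 ± 368 (−0.62, SE 0.12, limma adjusted p = 0.00141). BBC1 fell by 0.63, RVS167 by 0.45, LSB5 by 0.42 and BZZ1 by 0.30 on the log2 scale. The Ca libraries overlapped those of Sc[Ca] for ABP1, PRK1 and APP1, which did not pass. Without Ca replicate 3 all 10 passed lower. The 6-library fit called 5, with limma adjusted p of 0.0859 for RVS167 and 0.0928 for BBC1. For neither of these fits is the share of all genes called given here. RVS167 had limma adjusted p of 0.0581 to 0.0998 without Ca replicates 1 or 2 or Sc[Ca] replicates 1 or 2, and BBC1 had 0.062 and 0.0689 without Ca replicates 1 and 2. Between Ca and N2 limma called 0 of the 10, where 0.517% of all genes were called, with 0 at an unadjusted p under 0.05. The largest fold there was −0.32 for BBC1 (95% interval −0.71 to 0.06), and without Ca replicate 3 ABP1 (−0.55), BBC1 (−0.59) and APP1 (−0.28) passed lower.

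In Sc[Ca] the outcome depended on which libraries shared the estimate of spread. The fit of all 18 libraries called 0 of the 10, whereas the fit of the 3 Sc[Ca] and 3 ScNI libraries called 6 higher, beside 7.89% of all genes called higher in that fit. These were YSC84 (log2 0.36, SE 0.05, limma adjusted p = 0.00229), BBC1 (0.30, SE 0.04, 0.00219), RVS167 (0.23), ABP1 (0.20), ARK1 (0.17) and BZZ1 (0.16). The Sc[Ca] and ScNI libraries did not overlap for these 6 or for LSB5, and the share of all genes without overlap is not given here. RVS167 was at 4912, 5001 and 4643 in Sc[Ca] against 4019 to 4314 in ScNI. Leaving out single libraries in that fit, a setting chosen after the data were seen, gave 3 to 6 genes, with 3 when Sc[Ca] replicate 2 was left out. Of the 10 folds 9 were positive, with a median of 0.17 against 0.00 over all genes.

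Sc[Sp] and Sc[At] depended on the fit too. Without Sc[Sp] replicate 3, the fit of the remaining libraries called 1 of the 10 in Sc[Sp] (LSB5, log2 0.31, limma adjusted p = 0.0494). The 6-library fit of Sc[Sp] and ScNI called 5 of the 10, beside 47.2% of all genes: BBC1 (log2 0.34), YSC84 (0.34) and LSB5 (0.26) higher and ARK1 (−0.32) and APP1 (−0.18) lower. On the 12 libraries of the other 4 strains, without N2 and Ca, limma called 4 of the 10 in Sc[Sp], beside 41.7% of all genes: BBC1, LSB5, ARK1 and APP1, in those directions. The same setting called 3 in Sc[At], beside 31.1%: ABP1 (0.37) and BBC1 (0.37) higher and RVS161 (−0.32) lower. Between Sc[At] and Sc[Sp] the fit of all 18 libraries called 0 of the 10 with limma, where 13.5% of all genes were called, with 2 at an unadjusted p under 0.05 (RVS161 and LSB5). Without Sc[At] replicate 2, RVS161 (−0.42) passed lower. With N2 and Ca left out 4 were called, beside 31.4%: ARK1 (0.23) and APP1 (0.23) higher and RVS161 (−0.33) and LSB5 (−0.22) lower in Sc[At]. Sc[At] replicate 3 was the lowest Sc[At] library for 8 of the 10, with YSC84 at 0.561 times the mean of the other 2. Sc[Sp] replicate 3 was likewise the lowest Sc[Sp] library for 8 of the 10. How often these libraries were the lowest over all genes is not given here.

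Across the 18 haploid libraries the 10 genes varied together to different degrees. Pearson correlations of log2(value + 1) over the 45 pairs ran from 0.27 to 0.94, with a median of 0.66 and 0 pairs below 0. With strain means removed the median was 0.58. The libraries share depth, normalisation and strain, so these values are a description. RVS167 and BBC1 were the closest pair (r = 0.94), and YSC84 and LSB5 (0.91), PRK1 and BBC1 (0.91) and ABP1 with PRK1, RVS167 and BBC1 (0.89 each) were close too. The kinase genes ARK1 and PRK1 correlated at 0.66 and the heterodimer partners RVS161 and RVS167 at 0.54. BZZ1 was the least like the rest, at 0.27 with ABP1. Among all 5807 other genes, the one most like each gene that passed the F test, by r over the 18 libraries, was CMK2 for ARK1 (0.94), MTC1 for RVS161 (0.96), PBP1 for BZZ1 (0.87), EDE1 for BBC1 (0.98), VHS3 for YSC84 (0.98) and SSN8 for LSB5 (0.95). EDE1 encodes an early endocytic scaffold, CMK2 a calmodulin-dependent kinase and SSN8 a cyclin of the Mediator.

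**Figure D4:**
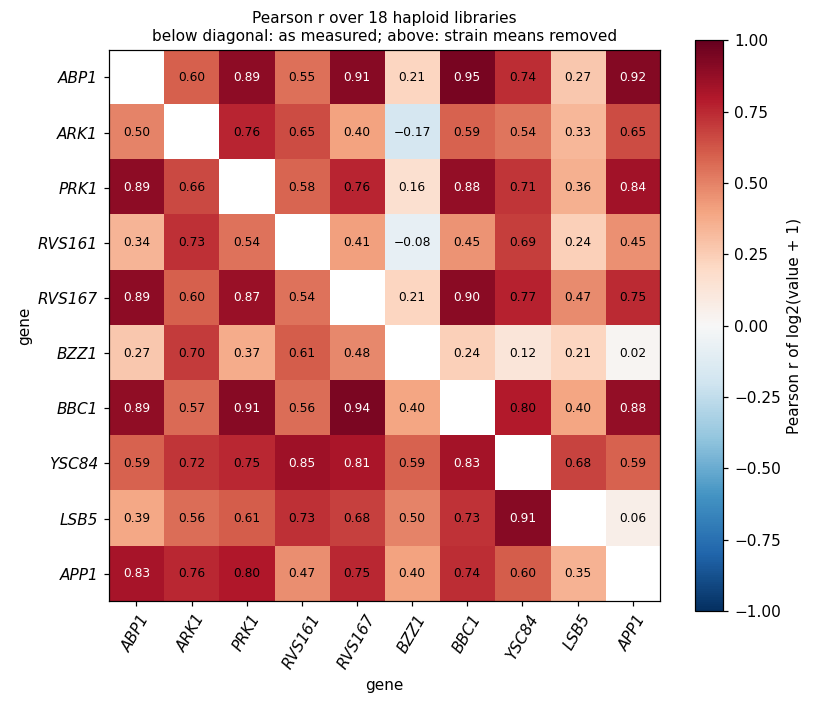
Pearson r of log2(value + 1) between each pair of the 10 genes (rows and columns) over 18 haploid libraries, as measured below the diagonal and with strain means removed above it. ABP1, PRK1, RVS167 and BBC1 correlate with each other at 0.76 or more on both sides, and BZZ1 with ABP1 at 0.27 and 0.21.

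The wider patch machinery was read from 5 lists with 46 genes, none of them among the 10. The counts are from limma on all 18 libraries unless another fit is named. In Sc[Ca] 0 of the 46 passed, beside 0.0172% of all genes, with 0 at an unadjusted p under 0.05. The 6-library fit gave 17 higher and 0 lower there, beside 7.89% of all genes called higher. With edgeR on the libraries with recovered reads 1 was higher, beside 7.22% of all genes called in either direction. In Sc[Sp] 5 rose and 0 fell, beside 21.0% of all genes called. There the 6-library fit gave 30 higher and 2 lower, beside 47.2% of all genes called in either direction. The fit without N2 and Ca gave 26 and 1, beside 41.7%, and edgeR gave 28 and 2, beside 49.4%. The fit of 18 had a median of 0.28 in the list of AKL1 and the kinase substrates. The AP180 clathrin adaptor genes YAP1801 (log2 0.60, SE 0.19, limma adjusted p = 0.037) and YAP1802 (0.44, SE 0.10, 0.0116) rose there, as did LAS17 (0.68, SE 0.13), the Arp2/3 subunit gene ARC19 (0.39, SE 0.13) and the lipid phosphatase gene LPP1 (0.32, SE 0.10). In Sc[At] VRP1, the verprolin gene (0.86, SE 0.23), and LAS17 (0.71, SE 0.13) rose, and LDB17, whose product acts in patch assembly, fell (−0.41, SE 0.12), while the other 43 did not pass, beside 15.3% of all genes called. Without the N2 and Ca libraries 12 were called higher and 4 lower in Sc[At], beside 31.1% of all genes called in either direction. The 6-library fit gave 7 and 1, and its share of all genes is not given here.

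In N2 4 of the 46 rose and 3 fell, beside 16.5% of all genes called higher and 12.6% lower. The 6-library fit gave 6 higher and 6 lower, and its share of all genes is not given here. With edgeR on the libraries with recovered reads, without N2 replicate 1, the counts were 5 and 16. Beside them, 58.4% of all genes were called in either direction. Those that rose were the type I myosin gene MYO5 (0.83, SE 0.14), the phosphatidate phosphatase gene PAH1 (0.88, SE 0.17) and the cofilin cofactor gene AIP1 (0.66, SE 0.12), all 3 on chromosome XIII, and LAS17 (0.47, SE 0.13) on chromosome XV. LDB17 (−0.59, SE 0.12), AIM7, which encodes a debrancher of Arp2/3 networks (−0.51, SE 0.14), and TDA2 (−0.44, SE 0.14) fell. In Ca 1 rose and 6 fell, beside 16% of all genes called higher and 14.2% lower. The 6-library fit gave 0 and 3, and its share of all genes is not given here. PAH1 rose (0.54, SE 0.17), and LDB17 (−0.64, SE 0.12), AIM7 (−0.60, SE 0.14), the F-BAR gene SYP1 (−0.45, SE 0.13), the coat gene SLA1 (−0.32, SE 0.08), YAP1802 (−0.30, SE 0.10) and the coronin gene CRN1 (−0.29, SE 0.09) fell. GVP36, which encodes a BAR-domain protein as RVS161 and RVS167 do, did not pass in N2 or Ca in the fit of 18 or in the 6-library fits and had a fold of −0.02 in N2 and −0.01 in Ca.

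Against Sc[Ca], 17 of the 46 fell in Ca and 0 rose, beside 19% of all genes called lower and 20.6% higher. The 6-library fit gave 8 lower and 0 higher, and its share of all genes is not given here. In the list of AKL1 and the kinase substrates 6 of 8 fell, led by YAP1801 (−0.55, SE 0.19), the epsin gene ENT2 (−0.51, SE 0.13) and SLA1 (−0.49, SE 0.08), and with AKL1 at −0.45 (SE 0.16, limma adjusted p = 0.0353). Of the 13 WASP, myosin, SH3 and BAR partners 4 fell, with LDB17 at −0.83 (SE 0.12), SYP1 at −0.71 (SE 0.13) and PIN3 at −0.50 (SE 0.19). Of the 18 genes of the patch actin network 4 fell, with AIM7 at −0.70 (SE 0.14), CAP2 of capping protein at −0.43 (SE 0.16) and the fimbrin gene SAC6 at −0.35 (SE 0.10). The synaptojanin genes INP52 (−0.32, SE 0.11) and INP51 (−0.28, SE 0.10), of 4 genes for membrane uncoating, and DPP1 (−0.28, SE 0.10), of 3 other phosphatidate phosphatases, fell too. Between Ca and N2 limma called 0 of the 46, with 5 at an unadjusted p under 0.05. Between Sc[At] and Sc[Sp], LDB17 (−0.46, SE 0.12) and AIM7 (−0.50, SE 0.14) were lower in Sc[At] and 0 were higher, beside 13.5% of all genes called. The fit without N2 and Ca gave 7 lower, beside 31.4% of all genes called in either direction. The 6-library fit gave 1 lower, and its share of all genes is not given here.

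In the diploids, limma called 0 of the 10 genes in N2/Ca against Sc/Sc, where 14.4% of 5727 genes were called. There were 2 at an unadjusted p under 0.05 (PRK1 and RVS161). RVS161 was at 2659, 2662 and 2677 in N2/Ca against 3114, 3232 and 4314 in Sc/Sc, without overlap (log2 −0.40, SE 0.14, limma adjusted p = 0.0834). PRK1 was at 873, 820.0 and 852 in N2/Ca against 779, 622 and 561, also without overlap, but higher in N2/Ca (0.39, SE 0.14, limma adjusted p = 0.0935). ABP1 (2689, 3081 and 3057 against 3191, 3734 and 3255) and LSB5 (1292, 1272 and 1173 against 1315, 1733 and 1347) were lower in every N2/Ca library, with limma adjusted p of 0.228 and 0.263.

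The other 6 genes overlapped between the diploids, and the share of all genes that did so is not given here. ARK1 was at 1118, 1338 and 1247 in N2/Ca and 1193, 1201 and 1131 in Sc/Sc, a fold of 0.07 (95% interval −0.18 to 0.31). YSC84 was at 985, 1073 and 998 against 991, 1419 and 1093 (−0.18, 95% interval −0.51 to 0.15). Sc/Sc replicate 3 set much of the spread of the wild type, with BBC1 at 1425 against 2409.6 and 2602, and RVS161 at 4314. Without it, RVS161 (−0.25, limma adjusted p = 0.037) and RVS167 (−0.28, limma adjusted p = 0.0496) passed lower. Without Sc/Sc replicate 1, PRK1 (0.52, limma adjusted p = 0.0385) passed higher. N2/Ca replicate 1 had raised medians of chromosomes VI (0.41) and XIII (0.46). It was the lowest N2/Ca library for 6 of the 10 and the highest for 3, at a median of 0.976 times the mean of the other 2. Of the 46 list genes 3 rose and 2 fell in N2/Ca, beside 14.4% of all genes called: MYO5 (0.66, SE 0.17), INP52 (0.59, SE 0.13) and AKL1 (0.41, SE 0.10) rose, and PIN3 (−0.76, SE 0.14) and the dynamin-like gene VPS1 (−0.38, SE 0.09) fell. No level was set across ploidy, since each table has its own scaling.

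**Figure D5:**
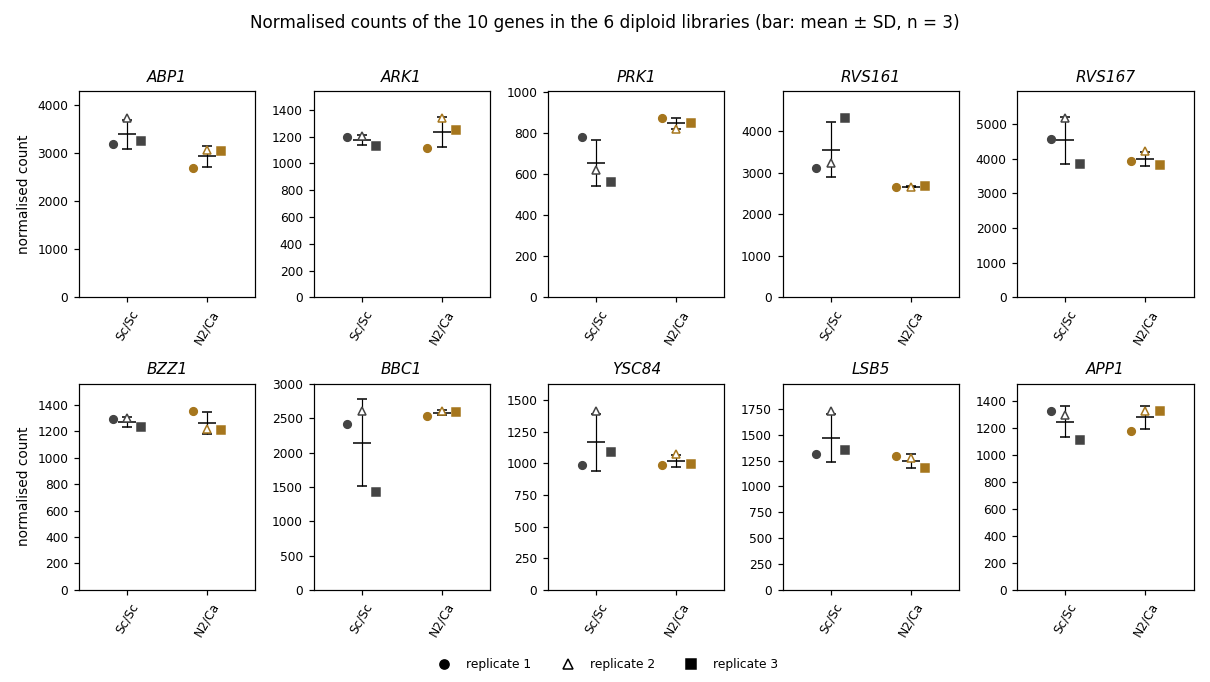
Normalised counts (y axis, linear, from 0) of each gene in the 6 diploid libraries, by strain (x axis), with points for libraries and bars for mean ± SD (n = 3). RVS161 lies between 2659 and 2677 in N2/Ca, below every Sc/Sc library, and PRK1 lies above every Sc/Sc library.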

How the data were processed

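The deposited values are signal: per the submitters' processing notes and the table names, DESeq2 size factors scaled the authors' gene counts, once for the haploid and once for the diploid table. Those notes name build R64, HISAT2 2.2.1 and DESeq2 1.28.0, after Trimmomatic 0.39 and FastQC 0.11.9. The sources used here do not name the counting tool or its strand setting. The RNA was captured by its poly(A) tails and the libraries keep strand, per the labels' protocols.

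All 24 columns were mapped from the labels. The diploid table heads 3 columns N19_Ca, which were taken as N2/Ca, the only diploid label that holds Ca. Genes with a mean of at least 10 were tested, 5808 haploid and 5727 diploid, with entries for introduced actins left out. limma 3.58.1 with a mean-variance trend was fitted to log2(value + 1), to the 18 haploid libraries together and to the 6 diploid ones separately. Calls used a Benjamini-Hochberg adjusted p under 0.05 over all genes tested. Errors after ± are SD over 3 libraries, and intervals are 95%.

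Other settings were a pseudocount of 10, no filter, a scaling on genes outside chromosomes VI and XIII, a replicate block, fits of the 6 libraries compared and leaving libraries out. Whole reads were recovered by dividing a column by its smallest step, and 100% of values were whole within 0.001 reads. This was accepted by an automated check for 13 of the 24 columns and refused for 11, whose depth is not used. edgeR 4.0.16 was therefore run on 11 haploid libraries alone. The scripts were tested on simulated data. There limma recovered 59% of genes changed 1.5-fold and 91% of those changed 2-fold in 1 haploid strain. In the diploids it recovered 37% and 72%. Many smaller changes would therefore be missed.

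Same-numbered libraries deviated together in each comparison of Sc[Ca], Sc[Sp], Sc[At] and N2 with ScNI, with a lowest correlation of 0.31, and of Sc[At] with Sc[Sp], where it was 0.32. In comparisons with Ca and between the diploids the lowest correlation was 0.08 or below. Replicate 2 of each haploid strain differs in mating type from the others. The correlations can therefore not show that equal numbers mark a shared culture or day.

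The 10 genes, the lists of other patch genes and the tests were chosen with earlier results of these data known. Named genes were the 10, up to 3 called genes with the largest fold per list and comparison with AKL1, LSB3 and GVP36 always, and ACT1. The gene most like each of those that passed the F test was named too.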

Additional observations from a re-analysis of the deposited data

How the results depend on the processing

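The counts of called genes among the 10 were unchanged with a pseudocount of 10, no filter on low values, a scaling on genes outside chromosomes VI and XIII and the replicate block. Those counts were 0 for Sc[Ca], Sc[Sp] and Sc[At], 2 for N2, 4 for Ca, 7 for Ca against Sc[Ca], 0 for the other pairs and 6 for the F test. A block by replicate number thus changed no count. The fit of the 6 libraries compared gave 6 in Sc[Ca], 2 in Ca, 3 in N2, 5 in Sc[Sp] and 5 in Ca against Sc[Ca], with 3 to 6 in Sc[Ca] when single libraries were left out of it. Without the N2 and Ca libraries, 4 were called in Sc[Sp], 3 in Sc[At] and 4 in Sc[At] against Sc[Sp]. On the 11 libraries with recovered reads, edgeR and limma each gave 6 in N2, 5 in Sc[Sp] and 1 in Sc[Ca]. The planned edgeR and DESeq2 fits of all libraries were not run, because reads were recovered for 13 of 24.

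Leaving out each library in turn gave 0 to 1 in Sc[Sp], 0 to 4 in N2, 1 to 9 in Ca, 0 to 3 in Ca against N2, 5 to 10 in Ca against Sc[Ca], 0 to 1 in Sc[At] against Sc[Sp], 0 to 2 in the diploids and 5 to 10 in the F test. Signs turned in 3 such cases, none of them called: the fold of ABP1 in Ca against ScNI ran from −0.45 without Ca replicate 3 to 0.0075 without Ca replicate 1, and that of APP1 in Ca against N2 from −0.28 without Ca replicate 3 to 0.036 and 0.053 without Ca replicates 1 and 2. The causes were not tested, and the share of all genes called with a library left out is not given here. With 3 libraries per strain, differences below about the spread between libraries were not detectable.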
